A study of Mus musculus with 16 samples.

Results

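The 7 genes described here, *Cryab*, *Hspb1*, *Hspb2*, *Hspb3*, *Hspb6*, *Hspb7* and *Hspb8*, encode small heat shock proteins and were taken by symbol from a count table of 46320 genes. They were chosen by the readout of *Cryab*, the gene of alpha-B crystallin, which was among the transcripts with the largest axonal enrichment, and this choice named no genotype. The difference of *Cryab* between compartments is therefore given as a description without a test in both genotypes. The other 6 were taken as its relatives, and their differences were described in +/+ and tested in *Hnrnpr*-/- motoneurons. Lumbar spinal cords of mice at embryonic day 13 gave the motoneurons, which were enriched by panning with an antibody against the neurotrophin receptor p75NTR. They grew in microfluidic chambers, where axons pass through grooves into a second chamber and leave their somata and dendrites behind. RNA of the somatodendritic and of the axonal compartment was sequenced from +/+ and from *Hnrnpr*-/- motoneurons, with 4 libraries in each of the 4 groups. *Hnrnpr* encodes the RNA-binding protein hnRNP R, and in *Hnrnpr*-/- mice its exons 1 to 5 were removed with CRISPR/Cas9 in the germline, so that every cell type of the culture carried the deletion. Both genotypes received the neurotrophic factor CNTF at 5 ng/ml in both compartments and BDNF at 20 ng/ml in the axonal compartment only. The study calls the libraries of a group biological replicates, and p-values measure the spread between these libraries.

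Small heat shock proteins share an alpha-crystallin domain, assemble into dimers and oligomers, and hold unfolding proteins in a soluble state without using ATP. They bind actin and intermediate filaments, and *Hspb8* acts with the co-chaperone *Bag3* in the autophagic removal of damaged filament proteins. *Cryab*, *Hspb2*, *Hspb3*, *Hspb6* and *Hspb7* are known from heart, skeletal and smooth muscle, and *Cryab* also from lens and glia. Inherited variants of the human genes *HSPB1*, *HSPB3* and *HSPB8* are known from distal motor neuropathies, in which the longest motor axons fail.

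Heat shock genes are induced by heat shock factor 1, which binds inverted repeats of the letters GAA. The pattern GAANNTTC, in which N is any base, reads the same on both strands, and it was searched in RefSeq promoters of 300 bases, from 250 before to 50 after a transcript start (assembly GRCm38.p6, an older build than that of the counts). Of the members, 5 were in this promoter table, with 6 promoters, whereas *Cryab* and *Hspb2* were absent from it and could not be searched. The pattern was present in 4 of these 6 promoters, those of *Hspb1*, *Hspb3*, *Hspb8* and the downstream start of *Hspb6*, and in 7.86% of all 32851 promoters. *Hspb1* had the pattern at 2 places, as had 0.344% of all promoters. A match describes the letters only. The sites are shown on the strand of the gene, from 5′ to 3′, with the pattern in capitals, so that their letters and distances can be compared between members. Those of *Hspb1* lie at chr5:135887792-135887819 and chr5:135887812-135887839 on the + strand, 117 and 97 bases before the start. Those of *Hspb3* (chr13:113663883-113663910, - strand), *Hspb6* (chr7:30553171-30553198, + strand) and *Hspb8* (chr5:116422845-116422872, - strand) begin 224 bases before the start, 120 bases before it and at the third base of the transcript.
Hspb1, upstream site: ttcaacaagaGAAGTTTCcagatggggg
Hspb1, downstream site: gatgggggcaGAACCTTCctggccccgc
Hspb3: tccccgaatgGAATTTTCaggcagaggg
Hspb6: agtaattattGAAGTTTCtaaataagga
Hspb8: gaagccaggaGAAGTTTCtaggctcgcg
The 250 bases before the *Hspb1* start (chr5:135887669-135887918, + strand) hold both of its sites.
Hspb1 promoter: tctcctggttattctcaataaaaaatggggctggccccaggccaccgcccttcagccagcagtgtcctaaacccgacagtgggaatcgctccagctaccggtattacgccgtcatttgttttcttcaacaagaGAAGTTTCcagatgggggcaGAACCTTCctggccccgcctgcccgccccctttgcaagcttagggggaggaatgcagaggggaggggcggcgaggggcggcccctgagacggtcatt

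Library totals ranged from 22024923 to 34864151 counts, and levels are given in CPM, the counts divided by the library total and its TMM scaling factor, as mean ± SD over n = 4 libraries. *Hnrnpr* fell from 204 ± 27.1 to 0.860 ± 0.304 CPM in somatodendritic and from 212 ± 141 to 0.876 ± 0.222 CPM in axonal libraries, as the genotype labels say. The axonal cDNA was amplified with 15 and the somatodendritic cDNA with 10 PCR cycles, so that compartment and amplification cannot be told apart. The motoneuron markers differed among themselves. Slc18a3 and Slc5a7, the vesicular acetylcholine and the choline transporter genes, were read in all 8 somatodendritic libraries, at 8.04 ± 3.21 and 6.12 ± 2.09 CPM in +/+, as were the transcription factor genes Isl1 and Lhx3, at 5.09 ± 1.98 and 4.45 ± 0.649 CPM. *Chat*, which encodes choline acetyltransferase, was lower, at 0.899 ± 0.291 CPM in the +/+ somatodendritic libraries, and *Mnx1*, another motoneuron transcription factor gene, had no read in any of the 8 somatodendritic and in 7 of the 8 axonal libraries. The 12 neuronal markers summed to between 3576 and 5560 CPM in the somatodendritic and between 418 and 2959 CPM in the axonal libraries. Markers of pericytes and smooth muscle summed to between 24.8 and 461 CPM in the somatodendritic and between 1540 and 12205 CPM in the axonal libraries, and were highest in replicate 3 of each of the 4 groups. In bulk RNA, fewer cells of a type and less RNA per cell cannot be told apart.

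*Cryab* had the highest axonal level of the 7 genes in CPM. In +/+ somatodendritic libraries 1 to 4 it was at 0.814, 0.585, 6.62 and 1.69 CPM, and in +/+ axonal libraries 1 to 4 at 101, 47.6, 380 and 231 CPM. In *Hnrnpr*-/- motoneurons it was at 0.617, 1.21, 5.78 and 3.60 CPM in somatodendritic and at 105, 88.6, 445 and 235 CPM in axonal libraries. Replicate 3 was the highest library of each group, and every axonal library lay above every somatodendritic one. The +/+ group means were 2.43 ± 2.84 and 190 ± 148 CPM, a descriptive log2 fold change (log2FC) of 6.32 that ranked 13 among 18679 genes in a fit of the +/+ libraries. This difference became 7.54 on the log2 scale when +/+ somatodendritic replicate 3 was left out. In *Hnrnpr*-/- motoneurons the *Cryab* means were 2.80 ± 2.37 and 218 ± 164 CPM, a descriptive log2FC of 6.35 (standard error (SE) 0.89) that ranked 12 among 18690 genes. It was 6.43 without the replicate 3 libraries, 6.95 without somatodendritic replicate 3 alone and 5.74 without axonal replicate 3 alone.

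The *Hnrnpr*-/- libraries were fitted on their own with edgeR's quasi-likelihood test over 18690 genes. Of all genes tested, 54.7% passed the adjusted threshold of 0.05 between compartments, 29.3% as higher and 25.4% as lower in axons. *Hspb1*, which encodes an actin-regulating chaperone of axons and muscle, had the next highest axonal level after *Cryab*. Its levels were 1.15, 0.675, 2.32 and 1.22 CPM in +/+ somatodendritic and 50.7, 21.6, 140 and 118 CPM in +/+ axonal libraries. Without hnRNP R they were 0.658, 0.952, 2.01 and 2.74 CPM in somatodendritic and 77.2, 33.0, 177 and 86.7 CPM in axonal libraries. The compartments did not overlap in either genotype, and replicate 3 was the highest axonal library of both. In *Hnrnpr*-/- motoneurons the log2FC was 5.94 (SE 0.67, 95% interval 4.41 to 7.47, adjusted p = 0.000826 from edgeR), rank 25 of the 18690 genes. The descriptive value in +/+ libraries was 5.97, at rank 22.

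*Hspb8*, the partner of *Bag3*, was at 2.23, 1.71, 3.89 and 1.59 CPM in +/+ somatodendritic and at 29.7, 19.6, 64.1 and 44.1 CPM in +/+ axonal libraries. *Hnrnpr*-/- motoneurons had 1.52, 2.51, 3.93 and 4.46 CPM in somatodendritic and 35.7, 20.9, 50.6 and 42.0 CPM in axonal libraries. The compartments were again apart, by a smaller factor than for *Cryab* and *Hspb1*. The *Hnrnpr*-/- log2FC was 3.65 (SE 0.41, 95% interval 2.72 to 4.58, adjusted p = 0.000826 from edgeR), beside a descriptive 4.09 in +/+ libraries.

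*Hspb6*, which encodes a phosphoprotein known from smooth and cardiac muscle, was the member with the highest somatodendritic level. It was at 7.33, 5.94, 10.8 and 6.99 CPM in +/+ somatodendritic and at 23.7, 24.0, 75.9 and 23.2 CPM in +/+ axonal libraries. Those of *Hnrnpr*-/- motoneurons were 6.58, 6.92, 9.67 and 6.94 CPM in somatodendritic and 12.2, 30.5, 59.5 and 29.1 CPM in axonal libraries. Replicate 3 was the highest library in all 4 groups, and 3 of the 4 +/+ axonal libraries lay close together below it. In *Hnrnpr*-/- motoneurons *Hspb6* was higher in axons by a log2FC of 2.18 (SE 0.43, 95% interval 1.21 to 3.16, adjusted p = 0.00392 from edgeR), beside a descriptive 2.27 in +/+ libraries.

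The remaining members were nearly silent in the somatodendritic compartment. *Hspb7*, a heart and muscle chaperone gene, had 3 counts in all over the 4 +/+ and 5 over the 4 *Hnrnpr*-/- somatodendritic libraries. Its axonal levels were 3.03, 0.756, 3.02 and 13.3 CPM in +/+ and 1.51, 0.714, 2.43 and 7.65 CPM in *Hnrnpr*-/- libraries, with replicate 4 highest in both genotypes. The ratio of axonal to somatodendritic CPM, taken over the summed counts, was 167 in +/+ (95% counting interval 57.0 to 813) and 56.3 in *Hnrnpr*-/- motoneurons (23.9 to 174). Intervals of this kind cover counting error only, since PCR copies carried no molecular identifiers. *Hspb7* passed the filter on low counts through its axonal libraries alone, so that a difference between compartments was a condition of its being tested. The *Hnrnpr*-/- fit gave it a log2FC of 5.82 (adjusted p = 0.0033 from edgeR), which was 6.60 without somatodendritic replicate 1 and 4.83 without axonal replicate 4.

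*Hspb2*, which lies beside *Cryab* and encodes a binding partner of myotonic dystrophy kinase, had 0 counts in all +/+ and 2 in all *Hnrnpr*-/- somatodendritic libraries after rounding. In axons it was at 1.29, 0.540, 2.60 and 1.28 CPM in +/+ and at 0.523, 0.621, 2.28 and 5.43 CPM in *Hnrnpr*-/- libraries. As counted, its +/+ axonal level was at least 11.6-fold higher, against a floor of 3 counts in each somatodendritic library. Reads of *Cryab* in a shared stretch, described below, cannot be told apart from those of *Hspb2*, so that its ratios hold for the assigned counts only. For *Hnrnpr*-/- motoneurons the ratio over summed counts was 101, with a 95% counting interval of 27.7 to 838. Like *Hspb7*, it passed the filter through the axonal libraries alone (adjusted p = 0.00356 from edgeR). Its fitted log2FC of 6.50 was 5.54 without axonal replicate 4. Without somatodendritic replicate 4 no somatodendritic count was left, and no fold is given.

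*Hspb3*, which encodes a small member that forms hetero-oligomers with *Hspb2*, was the lowest in axons and failed the filter in the comparisons of compartments. It had at most 5 counts in a +/+ and 7 in an *Hnrnpr*-/- somatodendritic library. Its axonal levels were 0.136, 0.216, 1.56 and 0 CPM in +/+ and 0.0290, 0.403, 2.01 and 0.331 CPM in *Hnrnpr*-/- libraries. The compartments overlapped in both genotypes, whereas *Hspb1*, *Hspb6* and *Hspb8* did not overlap between compartments in either. Nor did *Cryab*, *Hspb2* and *Hspb7*, but there a higher axonal level was a condition of the choice or of passing the filter. Of the genes tested, 24.9% were without overlap and higher in *Hnrnpr*-/- axons, and 25.7% in +/+ axons. Fitted without a filter, *Hspb3* had a log2FC of 3.18 (SE 1.39, adjusted p = 0.113 from edgeR) in *Hnrnpr*-/- motoneurons.

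**Figure D1:**
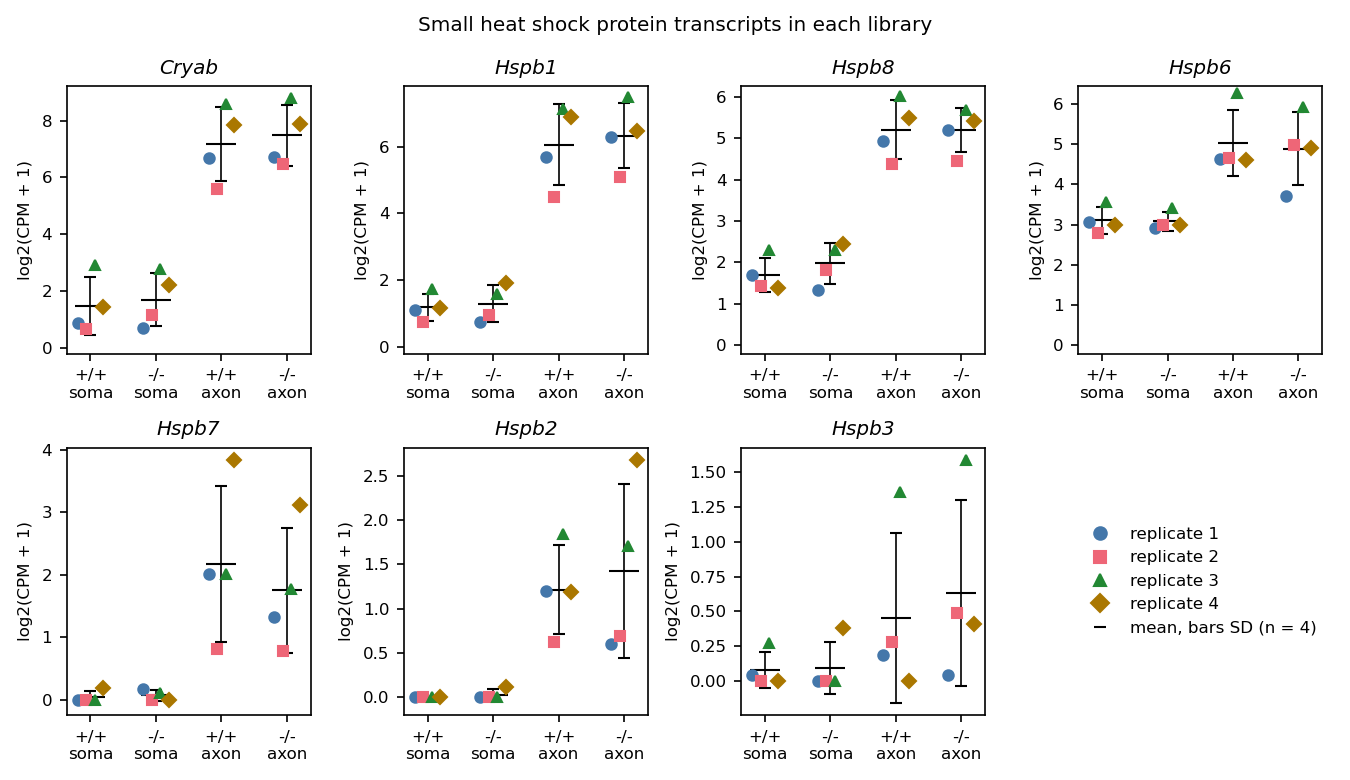
Level of each of the 7 transcripts as log2(CPM + 1) in each of the 16 libraries, in 4 groups on the horizontal axis; symbols mark the replicate number, and bars give the mean and SD of the log2 values (n = 4). Axonal libraries lie above all somatodendritic libraries in 6 panels, and the groups overlap for *Hspb3*.

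Levels were compared between members as CPM per kilobase of exon. The lengths are summed RefSeq exons, 2037 bases for *Cryab* and 1927 for *Hspb6*, beside 4400 and 3924 in the GENCODE annotation. The order and the shares of the members therefore hold for the RefSeq lengths. In +/+ axons, *Cryab* at 93.1 ± 72.7 and *Hspb1* at 91.5 ± 61.7 CPM per kilobase differed by less than their SD. The next members were *Hspb8* at 21.7 ± 10.6 and *Hspb6* at 19.1 ± 13.6, which also differed by less than their SD, followed by *Hspb7* at 1.82 ± 2.03, *Hspb2* at 1.70 ± 1.02 and *Hspb3* at 0.611 ± 0.929 CPM per kilobase. The order in *Hnrnpr*-/- axons was the same for the first 4, with *Cryab* at 107 ± 80.7, *Hspb1* at 104 ± 67.0, *Hspb8* at 20.5 ± 6.90 and *Hspb6* at 17.0 ± 10.2. The somatodendritic order was another one. *Hspb6* led with 4.02 ± 1.08 CPM per kilobase in +/+ libraries, above *Hspb1* at 1.48 ± 0.770, *Hspb8* at 1.30 ± 0.583 and *Cryab* at 1.19 ± 1.39.

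The make-up of the family thus differed between the compartments in each library. *Hspb6* made up between 40.4% and 60.9% of the summed CPM per kilobase in +/+ and between 31.7% and 64.1% in *Hnrnpr*-/- somatodendritic libraries, but between 4.20% and 17.4% in +/+ and between 3.84% and 14.6% in *Hnrnpr*-/- axonal libraries. *Cryab* made up between 5.68% and 23.5% in +/+ and between 5.68% and 23.1% in *Hnrnpr*-/- somatodendritic libraries. Its axonal share was between 32.6% and 44.1% in +/+ and between 31.5% and 45.5% in *Hnrnpr*-/- libraries. Although *Cryab* ranged from 47.6 to 445 CPM over the 8 axonal libraries, its ratio to *Hspb1* per kilobase stayed between 0.863 and 1.20 in +/+ and between 0.605 and 1.20 in *Hnrnpr*-/- axons. In somatodendritic libraries this ratio ran from 0.315 to 1.27.

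**Figure D2:**
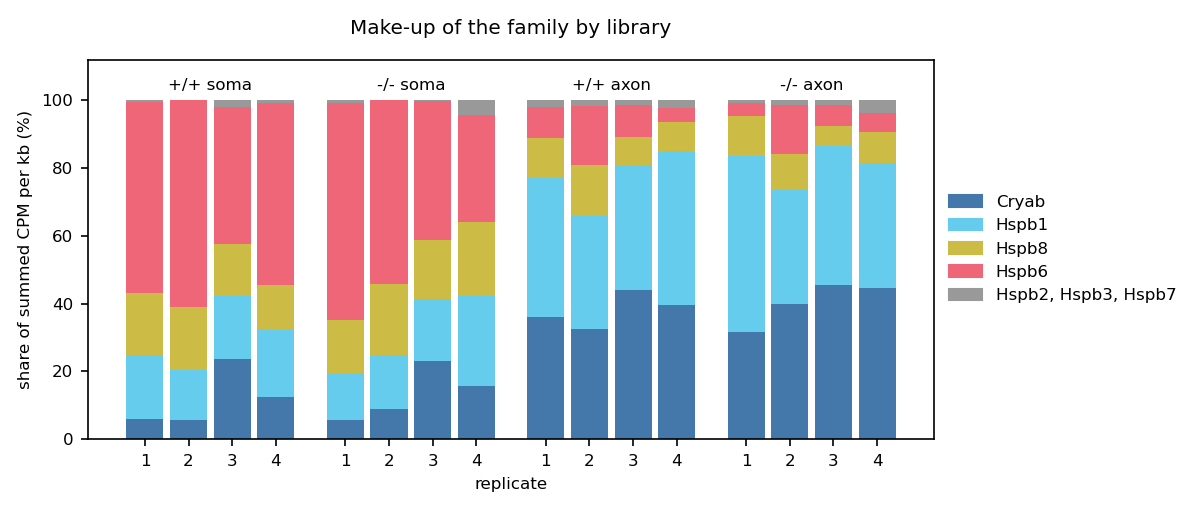
Share of each member in the summed CPM per kilobase of the 7 genes (vertical axis, %), 1 stacked bar per library, by group and replicate number. *Hspb6* fills between 31.7% and 64.1% of the somatodendritic bars and at most 17.4% of the axonal bars, where *Cryab* and *Hspb1* fill most of the height.

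The levels of several members moved between libraries with those of smooth muscle genes. The marker list held 10 genes, of which 6 rose in *Hnrnpr*-/- axons against the somatodendritic compartment (the background of higher genes was 29.3%), with 1 of them, Mgp, above the cutoff of the filter in 1 of the 4 somatodendritic and all 4 axonal libraries. The other 4 did not pass and went both ways. *Myh11* and *Rgs5* had log2FC values of 1.53 and 1.97, and *Kcnj8* and *Abcc9* were lower in axons, at -0.59 and -2.22. The median log2FC of the list was 4.89 against 0.04 over all genes tested. With DESeq2, or with the replicate number as a block, 6 were called higher and 1 lower. Without the replicate 3 libraries 6 rose as well. Its most abundant genes in axons were *Acta2*, smooth muscle actin, at 4054 ± 3978 CPM in +/+ and 3734 ± 3355 CPM in *Hnrnpr*-/- libraries, *Tagln* at 520 ± 387 and 445 ± 251 CPM, and *Myl9* at 451 ± 273 and 424 ± 293 CPM. The pericyte channel gene *Abcc9* had no read in 3 of the 8 axonal libraries. The summed markers in axonal libraries 1 to 4 were 2902, 1540, 12205 and 5734 CPM in +/+ and 2820, 2370, 10932 and 4193 CPM in *Hnrnpr*-/- motoneurons. Replicate 2 was lowest and replicate 3 highest in both genotypes, as for *Cryab* and *Hspb1*. The part of these cells in the levels of *Cryab*, *Hspb1*, *Hspb8* and *Hspb6* was not tested. Fibroblast and meningeal markers summed to between 329 and 4081 CPM in axonal and between 114 and 1405 CPM in somatodendritic libraries, and astrocyte and radial glia markers to between 2664 and 6304 and between 1533 and 2951 CPM. In both genotypes the fibroblast sum was highest in axonal replicate 4, the library with the highest *Hspb7*. Skeletal muscle markers reached 191 CPM in *Hnrnpr*-/- axonal replicate 4, the library with the highest *Hspb2*, and between 3.46 and 30.6 CPM in +/+ axons. That *Hnrnpr*-/- library had reads of all 10 skeletal muscle markers, whereas between 2 and 7 of them were at 0 in each +/+ axonal library. Of the genes that define the lineage, Myod1 had no read in 4, *Myog* in 6 and *Myf5* in 7 of the 8 axonal libraries. Microglia markers were likewise highest in that *Hnrnpr*-/- library, at 351 CPM. Oligodendroglia and Schwann cell markers summed to between 394 and 2171 CPM in axonal and between 274 and 1384 CPM in somatodendritic libraries, and endothelial markers to between 48.3 and 255 and between 5.67 and 31.4 CPM. The endothelial sum was carried in axons by Flt1 and Kdr, the genes of receptors for vascular endothelial growth factor, which rose in *Hnrnpr*-/- axons by 4.64 and 3.07 on the log2 scale (adjusted p = 0.00224 and 0.00193 from edgeR). The junction genes Cldn5 and Pecam1 were at 2.58 ± 2.16 and 3.45 ± 2.28 CPM in *Hnrnpr*-/- somatodendritic libraries and at 0.0564 ± 0.0781 and 0.323 ± 0.491 CPM in axonal ones. They were above the cutoff of the filter in all 4 somatodendritic libraries and in 0 and 1 of the 4 axonal libraries, so that they were tested through their somatodendritic level. The part of these cells in the values of the members was not tested either.

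**Figure D3:**
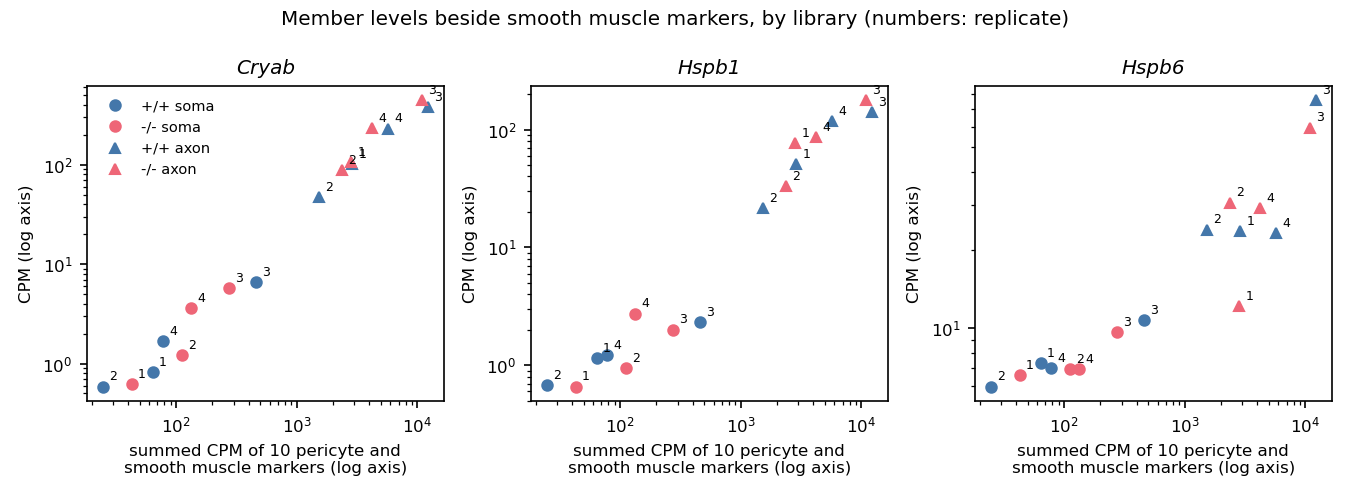
CPM of *Cryab*, *Hspb1* and *Hspb6* (vertical, log axis) against the summed CPM of 10 pericyte and smooth muscle markers (horizontal, log axis), 1 point per library labelled with its replicate number. Somatodendritic libraries lie at marker sums of 461 CPM or less and axonal ones at 1540 CPM or more, and replicate 3 has the highest marker sum of each group.

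The question of the design was whether loss of hnRNP R altered transcript levels in either compartment. None of the 7 members passed the threshold between genotypes in axons: all groups overlapped, the adjusted p was 0.999972 for each from edgeR, and no member had an unadjusted p under 0.05. DESeq2 and limma voom also called 0 members. Over all 18957 genes tested, 1 was called, *Hnrnpr* itself, or 0.00528%, and 137 had an unadjusted p under 0.05. Even that call was lost without the replicate 3 libraries or without *Hnrnpr*-/- axonal replicate 2, at log2FC values of -8.06 and -7.98 (adjusted p = 0.155 and 0.0546 from edgeR), beside -7.93 with all 8 libraries. *Cryab* differed by 0.23 on the log2 scale, with a 95% interval of -1.36 to 1.81. The intervals were -1.23 to 1.63 around 0.20 for *Hspb1*, -0.98 to 0.84 around -0.07 for *Hspb8* and -1.42 to 1.09 around -0.16 for *Hspb6*. The less abundant members had wider errors, with -0.66 for *Hspb7* (SE 0.93), 0.66 for *Hspb2* (SE 0.81) and 0.54 for *Hspb3* (SE 1.36). A log2 difference of 1 in either direction for *Cryab* or *Hspb1* was thus within the error of these 4 against 4 libraries. These contrasts share libraries with the values that chose the genes.

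In the somatodendritic compartment 4 members passed the filter, and 0 of them were called by edgeR, DESeq2 or limma voom, with an adjusted p of 0.999187 each from edgeR and no unadjusted p under 0.05. There 1 of 17961 genes was called, 0.00557%, again *Hnrnpr*, and 471 had an unadjusted p under 0.05. *Cryab* differed by 0.22 (95% interval -1.54 to 1.98) and *Hspb1* by 0.26 (-0.81 to 1.32) on the log2 scale. The narrowest interval was that of *Hspb6*, -0.50 to 0.44 around -0.03, and that of *Hspb8* ran from -0.43 to 1.24 around 0.40. *Hspb2*, *Hspb3* and *Hspb7* had too few counts to be tested. The difference between genotypes of the compartment contrast, fitted to all 16 libraries over 19964 genes, was -0.01 for *Cryab* (95% interval -2.40 to 2.39), -0.07 for *Hspb1* (-1.91 to 1.78), -0.12 for *Hspb6* (-1.46 to 1.22) and -0.47 for *Hspb8* (-1.73 to 0.78). It was -1.40 for *Hspb7* (-5.48 to 2.68), which rests on few somatodendritic counts, and no size could be read for *Hspb2*, which had 0 counts in +/+ somatodendritic libraries. The adjusted p was 0.999959 for each of these members, and 0 genes were called by edgeR, with 265 at an unadjusted p under 0.05. With default settings DESeq2 called 1 gene, which was no member.

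**Figure D4:**
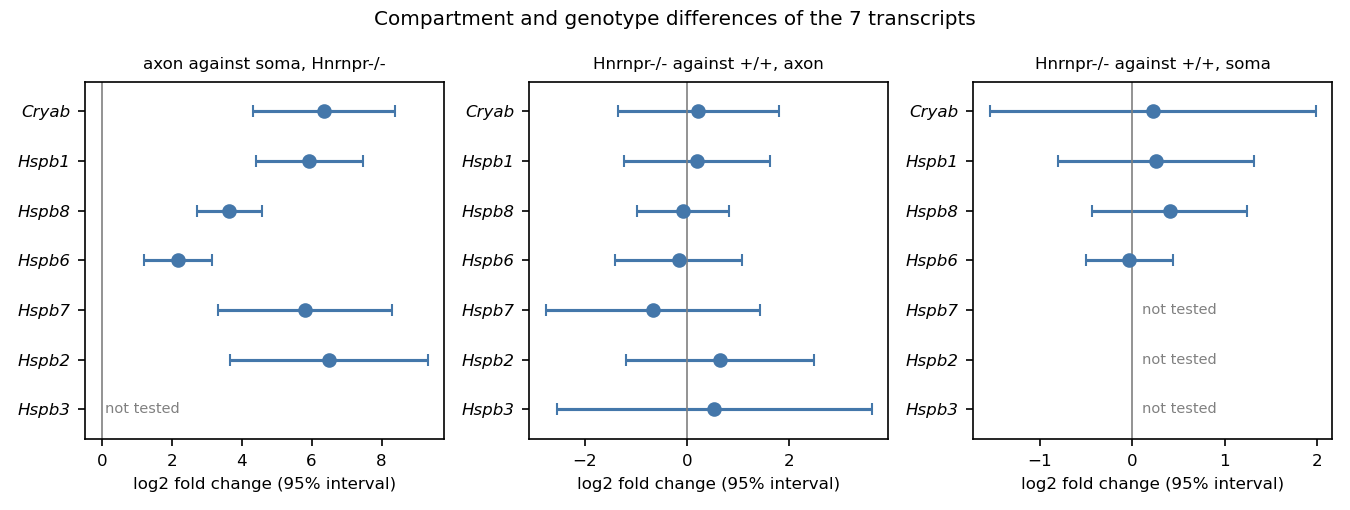
Log2FC (horizontal axis) with its 95% interval for each member between compartments in *Hnrnpr*-/- motoneurons (left) and between genotypes in axons (middle) and in the somatodendritic compartment (right); the scale differs between panels, and *Cryab* in the left panel is a description. The intervals of *Hspb1*, *Hspb6* and *Hspb8* in the left panel lie above 0, from 1.21 for *Hspb6* upward, *Hspb2* and *Hspb7* were tested through their axonal libraries alone, and all intervals of the other panels include 0.

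Of 4 genes outside the chosen 7 that carry a name of the family, 3 had almost no counts. *Cryaa*, the lens alpha-A crystallin gene, had at most 8 counts in a library, and *Hspb9*, a testis member, at most 4. *Odf1*, which encodes a sperm tail protein, had 0 counts in all 16 libraries, which allows up to 3 counts in each. *Hspb11*, which despite its symbol encodes a part of the intraflagellar transport complex without an alpha-crystallin domain, was at 2.46 ± 1.54 CPM in +/+ and 2.06 ± 0.759 CPM in *Hnrnpr*-/- somatodendritic libraries, and at 6.34 ± 1.38 and 5.42 ± 1.44 CPM in axonal libraries. It was higher in *Hnrnpr*-/- axons by a log2FC of 1.46 (SE 0.33, adjusted p = 0.00677 from edgeR).

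Among 8 genes that work with *Hspb8* and *Bag3*, 5 rose in *Hnrnpr*-/- axons, 0 fell and 3 did not pass, beside 29.3% of all genes as higher and 25.4% as lower, and with a median log2FC of 0.73 beside 0.04 over all genes tested. *Bag3*, the scaffold that *Hspb8* binds, rose from 3.94 ± 1.25 to 26.8 ± 10.9 CPM (log2FC 2.83, SE 0.37, adjusted p = 0.00108 from edgeR). *Flnc*, which encodes the actin crosslinker filamin C that this machinery clears, rose by 1.94 (adjusted p = 0.0148 from edgeR). The co-chaperone *Bag1* rose by 1.03 and the ubiquitin ligase gene *Stub1* by 0.78 (adjusted p = 0.000985 and 0.00328 from edgeR). *Hspa8*, *Synpo2* and *Sqstm1* did not pass, at 0.10, 0.61 and 0.11. Without the replicate 3 libraries 3 of the 8 rose, and *Flnc*, at 1.99, was no longer called (adjusted p = 0.0557 from edgeR).

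Of 18 genes of the wider heat shock response, 4 rose and 3 fell in *Hnrnpr*-/- axons, shares below the 29.3% and 25.4% of all genes, and 11 did not pass, with a median log2FC of -0.04 that became 0.02 when libraries were scaled by their totals. Without the replicate 3 libraries, 3 rose and 3 fell. *Serpinh1*, the collagen chaperone of the endoplasmic reticulum, rose by 3.01 (SE 0.54, adjusted p = 0.00272 from edgeR), and *Hspe1*, the mitochondrial co-chaperonin, by 1.97 (SE 0.22, adjusted p = 0.000826 from edgeR). The inducible Hsp70 genes were lower in axons, *Hspa1a* by a log2FC of -1.72 (adjusted p = 0.00436 from edgeR) and *Hspa1b* by -1.44 (adjusted p = 0.00426 from edgeR). These 2 genes are nearly identical in sequence, and reads shared between them were divided.

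Intermediate filament proteins are clients of *Cryab* and its relatives. Of 10 of their genes, 3 rose and 2 fell in *Hnrnpr*-/- axons, shares near the 29.3% and 25.4% of all genes, 5 did not pass, and the median log2FC was -0.94 beside 0.04 over all genes tested. With the replicate number as a block 5 fell, and without the replicate 3 libraries 2 rose and 1 fell. *Des*, the muscle filament desmin, rose by 4.75 (SE 1.26, adjusted p = 0.0132 from edgeR), and by 6.14 without somatodendritic and 3.62 without axonal replicate 4. It was above the cutoff of the filter in 2 of the 4 somatodendritic and all 4 axonal libraries, so that it was tested through its axonal level. *Vim*, which encodes vimentin of glia and mesenchyme, rose by 3.34 (SE 0.33, adjusted p = 0.000764 from edgeR), and *Nes*, nestin of progenitors and muscle, by 2.55 (SE 0.38, adjusted p = 0.00157 from edgeR). *Nefm*, a neurofilament subunit of neurons, had a log2FC of -2.23 (adjusted p = 0.0458 from edgeR), which became -3.26 without axonal replicate 1, and *Synm*, synemin, one of -2.06 (adjusted p = 0.0026 from edgeR). The call of *Nefm* was lost in 6 of the 8 fits that left out 1 library, at log2FC values from -2.44 to -1.93, and in the fit without the replicate 3 libraries, at -1.79 (adjusted p = 0.0825 from edgeR). *Des* was not called in that fit either, at 4.65. In the genotype comparisons 0 genes of the 3 lists were called by edgeR in either compartment or in the difference between them.

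The 5 genes whose log2(CPM + 1) followed *Cryab* most closely over the 8 axonal libraries, among 11027 genes with a mean of at least 10 CPM, were *Selenos*, *Casp8*, *Surf4*, *Rrp8* and *Rest*, with Pearson's r between 0.987 and 0.997. These values are the largest of many and describe 8 points that share library depth and preparation. *Casp8*, which encodes the initiator caspase of death receptors, was at 18.5 CPM in +/+ and 20.5 CPM in *Hnrnpr*-/- axons, and at 0.981 and 1.92 CPM in somatodendritic libraries.

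The positions of the members bear on how their reads were assigned. All positions are those of GRCm39. *Cryab* lies on the + strand of chr9:50657251-50667936, and this span contains *Hspb2* on the opposite strand (chr9:50662372-50663654). In the GENCODE annotation of that assembly, 757 exon bases are shared between them, 62.1% of those of *Hspb2* and 17.2% of those of *Cryab*. Reads were counted on RefSeq exons, which sum to 840 bases for *Hspb2*, 2037 for *Cryab* and 1927 for *Hspb6*, against 1219, 4400 and 3924 in GENCODE, so that the shares given here describe the GENCODE models and not the exons used for counting. The library kits do not mark strand, so that reads of these genes in the shared stretch cannot be told apart, and the axonal values of *Hspb2*, at a sum of 180 counts beside 23956 for *Cryab* in +/+ libraries, are uncertain. At its other end *Cryab* overlaps *2310030G06Rik*, which was at 1.15 CPM in +/+ axons. *Hspb6* (chr7:30251961-30254868, + strand) shares 11.8% of its exon bases with *Lin37* and 5.05% with *Proser3*, which were at 19.0 and 5.24 CPM in +/+ axons. In +/+ somatodendritic libraries they were at 11.7 and 7.40 CPM, beside 7.75 CPM for *Hspb6*. In the gene spans of the counts *Lin37* reaches to 30254866, and *Proser3* does not overlap *Hspb6*. The part of their reads in the somatodendritic level and share of *Hspb6* was not tested. *Hspb8* (chr5:116546550-116560923, - strand) is overlapped by *Gm36841*, at 2.22 CPM in +/+ axons, and *Gm42009* shares 9.95% of its exon bases and was at 0 CPM there. *Hspb1* (chr5:135916773-135918417, + strand) had no such neighbor, *Hspb7* (chr4:141148090-141152621, + strand) shares 2.57% of its exon bases with *Gm70184*, and *Hspb3* (chr13:113799432-113800212, - strand) lies within the span of *Gm34586*, which was at 0 CPM in all groups.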

How the data were processed

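RNA-seq of 16 libraries (SMART-Seq v4, Nextera XT, single reads of 100 bases) was analyzed. Per the study's methods and the labels, reads were trimmed with Cutadapt, aligned to GRCm39 with STAR 2.7.2b and counted on RefSeq exons with featureCounts 1.6.4 in the reverse-strand setting. Multi-mapping and multi-overlapping reads were divided, so the values deposited by the authors are expected counts with fractions, without normalization. Counts were rounded, and totals per library were 22024923 to 34864151. A gene without a read allows up to 3 counts per library.

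R 4.3.3 was used with edgeR 4.0.16 (quasi-likelihood test, TMM, filterByExpr with a minimum count of 10, Benjamini-Hochberg adjustment over all genes tested, threshold 0.05, two-sided). Compartments were compared within the 8 *Hnrnpr*-/- libraries, without a test for *Cryab*, and genotypes within each compartment. The script was tested on simulated data. The labels give replicate numbers without stating a pairing. The numbers were taken to pair *Hnrnpr*-/- somatodendritic and axonal libraries from the data: correlations of same-numbered libraries' deviations were 0.169 to 0.577 in 4 of 4 pairs. The main fits did not use this pairing, which entered only as the replicate block. Alternatives were other normalizations, filters and unrounded counts, DESeq2 1.42.0, limma 3.58.1, exact permutation tests (between genotypes only), 1 fit of all 16 libraries, a replicate block and each library left out. The members, lists and alternatives were chosen with earlier results of these data known. Named genes are the members, other genes with family names, *Hnrnpr*, overlapping genes, the 5 genes most similar to *Cryab* (those for *Hspb1* are not reported here), up to 4 called genes with the largest change per list, and up to 3 abundant or defining genes per marker list. Other genes were named after their values were seen.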

Additional observations from a re-analysis of the deposited data

Results flagged for a closer look

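In 7 of the 27 groups of 4 libraries examined, 1 library of a member stood apart from the other 3 by Dixon's criterion. This criterion uses the gap between them, and for normally distributed values chance gives about 1 in 20 groups. The groups here share libraries and some hold almost no counts, so that 7 of 27 cannot be compared with that rate. Of the 7 groups, 4 involve replicate 3, in which the smooth muscle markers were highest. *Hspb6* was at 75.9 CPM in +/+ axonal replicate 3 and at 9.67 CPM in *Hnrnpr*-/- somatodendritic replicate 3. *Hspb3* was at 1.56 CPM in +/+ axonal replicate 3 and at 0.207 CPM in +/+ somatodendritic replicate 3. The last of these rests on 5 of the 6 counts of its group, and the other 3 also rest on few counts in a library whose companions had almost none. *Hspb3* was at 0.300 CPM and *Hspb2* at 0.0857 CPM in *Hnrnpr*-/- somatodendritic replicate 4, and *Hspb7* was at 0.141 CPM in +/+ somatodendritic replicate 4. In each of these 3 groups the other libraries were at 0 CPM, so that a count in 1 library alone meets the criterion.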

How the results depend on the processing

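In the *Hnrnpr*-/- compartment contrast, *Hspb1*, *Hspb6* and *Hspb8* remained higher in axons past the threshold under all 11 alternatives fitted across genes and in all 8 fits that left out 1 library. So did *Hspb2* and *Hspb7*, which were tested through their axonal libraries alone, so that a difference was a condition of the test. Leaving out all replicate 3 libraries was chosen after seeing the data. Among genes named beside the members, the calls of *Flnc*, *Des*, *Nefm* and *Hnrnpr* were lost under settings given with them. With a replicate block, the descriptive *Cryab* log2 fold change was 6.48, and the block changed no call of a member in any comparison. In the other comparisons not every pair was over 0.1, and the numbers were not taken to pair the libraries: correlations of same-numbered libraries were 0.0833 to 0.292 between +/+ compartments, 0.0462 to 0.786 between genotypes in axons and 5.03e-05 to 0.470 in the somatodendritic compartment, with 4, 2 and 1 of 4 highest with their own number. That is a hint from the data that +/+ compartments were paired too. The study states that controls and treated samples shared a batch of cells, without tying it to these numbers.

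No genotype call of a member appeared under any alternative, and the small differences changed sign as follows. In axons without the replicate 3 libraries, *Hspb6* was at 8.10e-05 and *Hspb8* at 0.0584, and 0 genes were called in place of 1, against 2 in the fit of all 16 libraries. In the somatodendritic compartment *Hspb6* was at 0.0269 without the replicate 3 libraries. The difference between genotypes of the compartment contrast became 0.00750 for *Cryab* with RLE size factors, 0.00444 without a filter, 0.0118 with DESeq2 and 0.0352 with its betaPrior setting, which gave 0.0319 for *Hspb2*, fitted against a +/+ somatodendritic group at 0. For *Hspb1* it became 0.134 with limma voom and 0.0461 with the replicate block, and for *Hspb6* 0.0179 without the replicate 3 libraries. DESeq2 called 1 gene there in place of 0. The cause was not tested.

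With each library left out in turn, axonal genotype differences ranged from -0.398 to 0.838 for *Cryab*, -0.335 to 0.597 for *Hspb1*, -0.318 to 1.14 for *Hspb2*, -0.912 to 2.55 for *Hspb3*, -0.623 to 0.506 for *Hspb6*, -1.68 to 0.449 for *Hspb7* and -0.290 to 0.288 for *Hspb8*, with 0 to 1 genes called. Without *Hnrnpr*-/- axonal replicate 2, 0 genes were called. Somatodendritic ones ranged from -0.403 to 1.46 for *Cryab*, -0.144 to 0.652 for *Hspb1* and -0.170 to 0.164 for *Hspb6*. The difference between genotypes ranged from -1.25 to 0.627 for *Cryab*, -0.585 to 0.331 for *Hspb1* and -0.581 to 0.512 for *Hspb6*. For *Hspb2* the fits gave -2.86 to 0.630, but its +/+ somatodendritic group was at 0 in each, so that these values depend on the prior count and give no size of a difference. The descriptive +/+ log2 fold changes ranged from 5.77 to 7.54 for *Cryab* (highest without somatodendritic replicate 3). None is given for *Hspb2*, nor for *Hspb7* without +/+ somatodendritic replicate 4, where the somatodendritic group was at 0. *Hspb7* was at 6.03 without +/+ axonal replicate 4. Depth limits *Hspb2*, *Hspb3* and *Hspb7*, which had at most 7 counts in a somatodendritic library.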
